A study of Mus musculus with 29 samples.

Results

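The 9 genes described here were Myo6, Fchsd2, Diaph2, Ubash3b, Endod1, Ncmap, Eif4a2, Nup93 and Farsa, taken by their symbols from 55421 genes listed in a CRISPR guide experiment and 54532 genes listed in a cell-type experiment on mouse CD4 T cells. They were chosen because their levels differed between regulatory T (Treg) cultures with and without guide RNAs against Smad2 or Smad3, in most cases with the Smad3 guide. Their levels in the guide libraries are therefore a description and carry no test. Their levels in the cell-type libraries, by which they were not picked, were tested. Earlier results of these data were known at the choice, so it may not have been blind to the cell-type values. Naive CD4 T cells from the spleen of C57BL/6 mice were the source of all cultures. The guide experiment had 4 groups of Treg cultures with 2 libraries each: a guide against Smad2 (sgSmad2), a guide against Smad3 (sgSmad3), guides against both (sgSmad2/3), and Treg cultures whose labels name no guide (control). Treg cells, Th0 cells and uncultured naive cells made up the cell-type experiment, with 3 libraries of each. Treg cells had spent 5 days in 10 ng/ml human TGF-beta plus 15 ng/ml IL-2, and Th0 cells the same time in 15 ng/ml IL-2 without TGF-beta. All cultures of the guide experiment, controls included, had the same TGF-beta and IL-2 as the Treg cells. The labels do not say how Cas9 or the guides were delivered, whether controls carried a non-targeting guide, or whether libraries came from separate animals or cultures, so that the spread between libraries may be technical.

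TGF-beta binds a pair of receptor kinases that phosphorylate Smad2 and Smad3, which join Smad4 and act on genes in the nucleus. In naive CD4 T cells that are being activated, this signal together with IL-2 induces Foxp3, the transcription factor that defines Treg cells. Smad3 binds DNA directly through a short motif, CAGAC, whereas the common form of Smad2 does not. The 9 genes belong to no single pathway. Myo6 encodes an unconventional myosin that walks toward the minus end of actin filaments and carries endocytic and autophagic cargo. Diaph2 encodes a formin, which builds unbranched actin filaments, and Fchsd2 an F-BAR and SH3 domain protein that links membrane curvature to actin in endocytosis. Ubash3b, also called Sts-1, encodes a phosphatase that restrains signalling from the T cell receptor. Ncmap encodes a membrane protein known from Schwann cell myelin, and Endod1 a protein with an endonuclease domain. Eif4a2 encodes an RNA helicase of translation initiation, Nup93 a scaffold protein of the inner ring of the nuclear pore, and Farsa the alpha subunit of the cytosolic phenylalanyl-tRNA synthetase.

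Levels are reads per 1000000 counted reads (CPM) from 3' tag libraries. These held 797612 to 1551478 reads in the cell-type experiment and an estimated 1294583 to 1602297 reads in the guide experiment. The guide estimate takes an unnamed line of the deposited values as the CPM of a single read. Smad2 had 12 and 24 CPM in sgSmad2, 25 and 30 in sgSmad3, 13 and 18 in sgSmad2/3 and 37 and 29 in control libraries. Smad3 had 44 and 56 CPM in sgSmad2, 26 and 25 in sgSmad3, 41 and 37 in sgSmad2/3 and 30 and 34 in control libraries. Smad3 was thus below both controls with the Smad3 guide alone and above both controls with the 2 guides together, and none of these differences passed the test, with the log2 change of sgSmad3 against control at -0.31 (limma adjusted p = 0.63). A 3' tag lies away from a cut in the coding sequence and checks an edit only in part. Foxp3 lay between 138 and 207 CPM in Treg, 8.57 and 13.8 CPM in Th0 and 82.7 and 91.7 CPM in naive cells, and between 177 and 393 CPM in all guide libraries. The summed CPM of 5 red cell markers was 24 to 25 in sgSmad2, 32 to 87 in sgSmad3, 70 to 144 in sgSmad2/3 and 13 to 19 in control libraries, with Alas2 at 0 in all of them. This sum moved with the Smad3 guide, and its part in the levels below was not tested. In the same order of groups the summed CPM of 5 T cell markers was 1513 to 2021, 2117 to 2304, 2074 to 2124 and 1670 to 1948. At most 6 CPM of 5 B cell markers and 9 CPM of 5 myeloid markers were found in any guide library. The naive libraries held more of other cells, with sums of 496 to 1172 CPM for red cell, 12.9 to 114 for B cell and 4.68 to 17.3 for myeloid markers. In Treg and Th0 libraries these sums were at most 5.55, 7.77 and 1.06 CPM. The part of other cells in the comparisons against naive cells was not tested.

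Fchsd2, Diaph2, Ubash3b, Endod1 and Ncmap were at a lower level in each of the 4 libraries with the Smad3 guide than in each of the 4 without it, and the Smad2 guide alone left most of them near the control level. Fchsd2 had 127 and 139 CPM in sgSmad2, 64 and 59 in sgSmad3, 52 and 64 in sgSmad2/3 and 123 and 141 in control libraries. Its sgSmad2 values overlapped the control values, and its 4 values with the Smad3 guide lay close together, with sgSmad3 at 0.471 of the control level. Ubash3b had 148 and 113 CPM in sgSmad2, 58 and 57 in sgSmad3, 40 and 66 in sgSmad2/3 and 147 and 121 in control libraries. Here too the Smad2 guide alone overlapped the control, and both groups with the Smad3 guide lay below. These are bulk samples, in which fewer cells expressing a gene and less of its RNA per cell cannot be told apart.

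Diaph2 had 206 and 198 CPM in sgSmad2, 131 and 114 in sgSmad3, 95 and 98 in sgSmad2/3 and 239 and 235 in control libraries. It was the gene of these 5 whose groups were all apart, with control highest, sgSmad2 next, and sgSmad2/3 lowest. Endod1 had 136 and 131 CPM in sgSmad2, 51 and 60 in sgSmad3, 50 and 66 in sgSmad2/3 and 117 and 107 in control libraries. Its sgSmad2 values lay a little above both controls, and the groups with the Smad3 guide overlapped each other. Ncmap had 76 and 137 CPM in sgSmad2, 32 and 39 in sgSmad3, 31 and 37 in sgSmad2/3 and 60 and 58 in control libraries. Its 2 sgSmad2 libraries were far apart and both above the controls, which were in turn above all 4 libraries with the Smad3 guide.

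**Figure D1:**
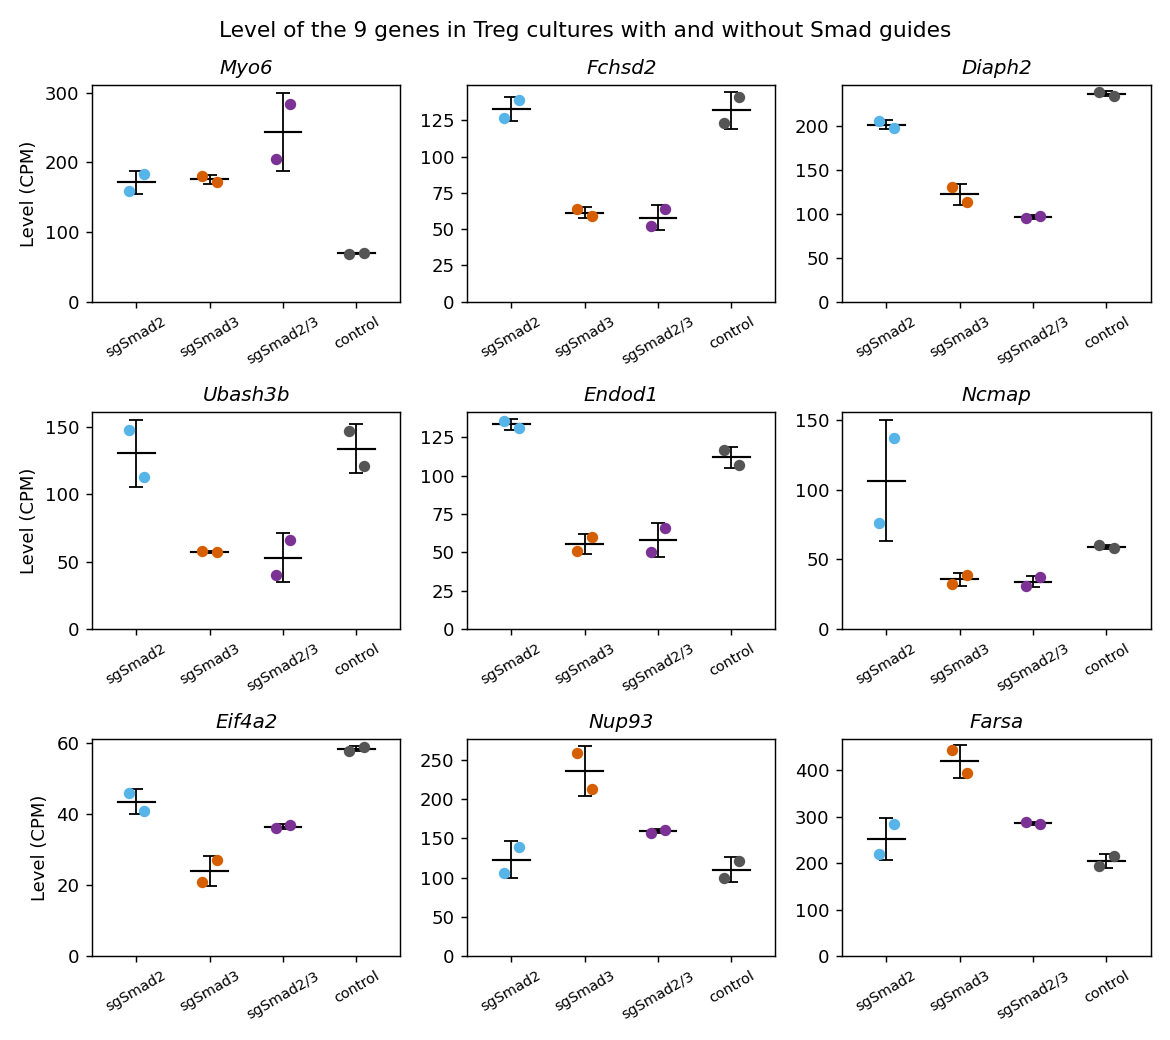
Level of each gene in CPM (vertical axis, from 0) in the sgSmad2, sgSmad3, sgSmad2/3 and control groups (horizontal axis). Each point is 1 library, and bars give the mean and SD of 2 libraries. Fchsd2, Diaph2, Ubash3b, Endod1 and Ncmap are low in both groups with the Smad3 guide, Myo6 is high in all 3 guide groups, and Eif4a2, Nup93 and Farsa are farthest from the control in sgSmad3.

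For these 5 genes the difference between cultures with and without the Smad3 guide could be read in 2 places that share no library. These were sgSmad3 against control and sgSmad2/3 against sgSmad2. Control and sgSmad2 libraries of the same replicate number deviated together (r = 0.389 over genes), so the 2 places were not fully independent. On the log2(CPM + 1) scale Fchsd2 differed by -1.09 and -1.19, Diaph2 by -0.95 and -1.06, Ubash3b by -1.20 and -1.31, and Endod1 by -1.003 and -1.20 in these 2 comparisons. The 2 differences of each of these 4 genes were within 0.2 of each other. Since the genes were chosen on these same libraries, and grouped by these values, this closeness is a description and not a replication. Ncmap differed by -0.72 and -1.56, and its second value includes the raised sgSmad2 libraries. With the Smad2 guide added to the Smad3 guide (sgSmad2/3 against sgSmad3) the 5 genes differed by between -0.34 for Diaph2 and 0.05 for Endod1.

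Eif4a2, Nup93 and Farsa had another order of groups, with sgSmad3 farthest from the control and sgSmad2/3 between. Nup93 had 106 and 139 CPM in sgSmad2, 258 and 213 in sgSmad3, 157 and 161 in sgSmad2/3 and 99 and 121 in control libraries. All 4 libraries with the Smad3 guide were above all 4 without. Farsa had 220 and 285 CPM in sgSmad2, 444 and 395 in sgSmad3, 288 and 284 in sgSmad2/3 and 195 and 216 in control libraries. Its sgSmad2/3 values touched the higher sgSmad2 value, so that the 4 libraries with the guide overlapped the 4 without. Eif4a2 had 46 and 41 CPM in sgSmad2, 21 and 27 in sgSmad3, 36 and 37 in sgSmad2/3 and 58 and 59 in control libraries. It was lowest in sgSmad3, and every library with the Smad3 guide was below every library without it. The Smad3 guide differed from control by -1.26 for Eif4a2, 1.09 for Nup93 and 1.03 for Farsa on the log2 scale when alone, and by -0.24, 0.39 and 0.19 when added to the Smad2 guide. For these 3 genes the difference was therefore smaller in the presence of the Smad2 guide, unlike Fchsd2, Diaph2, Ubash3b and Endod1, and this contrast between the 2 sets was not tested because the same libraries chose the genes.

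Myo6 was high with either guide, and unlike Farsa, whose sgSmad2 values lay only a little above the controls, by a similar amount with each. It had 159 and 183 CPM in sgSmad2, 180 and 171 in sgSmad3, 204 and 283 in sgSmad2/3 and 69 and 70 in control libraries. The single guides overlapped each other, both lay above the control, and the 2 libraries with both guides were the highest. On the log2 scale it differed from control by 1.28 in sgSmad2, 1.32 in sgSmad3 and 1.78 in sgSmad2/3, which is less than the sum of the single guides.

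**Figure D2:**
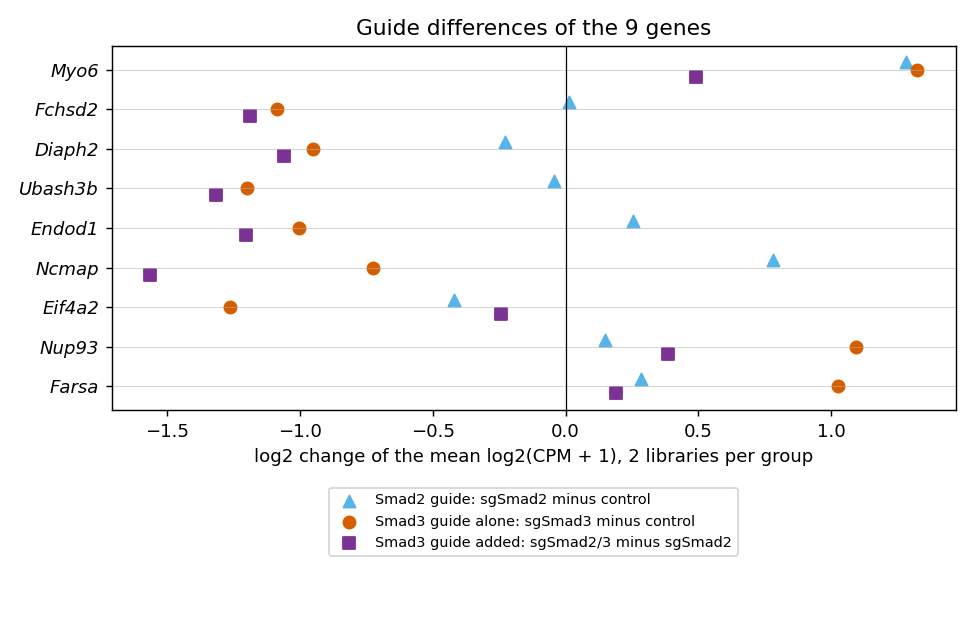
Difference of the mean log2(CPM + 1) (horizontal axis, 2 libraries per group) for each gene (rows) in 3 comparisons: sgSmad2 minus control, sgSmad3 minus control, and sgSmad2/3 minus sgSmad2. Circles and squares, the 2 comparisons of the Smad3 guide, lie close for Fchsd2 (-1.09 and -1.19) and apart for Farsa (1.03 and 0.19), and the triangle of the Smad2 guide stands far from 0 for Myo6 (1.28).

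Without a test, 6 of the 9 genes (Fchsd2, Diaph2, Ubash3b, Endod1, Ncmap and Eif4a2) were lower and 1 (Nup93) was higher in all 4 libraries with the Smad3 guide than in all 4 without. Of all 10737 genes tested in the guide experiment, 3.31% were lower and 3.93% higher by that criterion, and since the 9 were picked from these libraries nothing is read from the difference. Across the 8 libraries Fchsd2, Diaph2, Ubash3b and Endod1 correlated with each other at Pearson r of 0.886 to 0.960. Nup93 and Farsa correlated at 0.983, and Eif4a2 correlated with them at -0.954 and -0.976. These coefficients describe genes chosen on the same libraries.

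Promoter sequences of 8 of the 9 genes (all but Endod1) were in RefSeq on GRCm38.p6, as 11 windows of 300 bases that run from 250 bases before a transcript start to 50 bases after it. Those below are shown because they are the windows with the Smad motif CAGAC (either strand, so CAGAC or GTCTG, in capitals) and, for contrast, those of 2 genes that were low with the Smad3 guide and hold no match. Ncmap promoters 1 and 2 lie on the minus strand at chr4:135398178-135398477 and chr4:135385623-135385922. Nup93 promoter 1 lies on the plus strand at chr8:94214314-94214613. Diaph2 promoter 1 lies on the plus strand at chrX:129749492-129749791 and Ubash3b promoter 1 on the minus strand at chr9:41158013-41158312.
Ncmap promoter 1: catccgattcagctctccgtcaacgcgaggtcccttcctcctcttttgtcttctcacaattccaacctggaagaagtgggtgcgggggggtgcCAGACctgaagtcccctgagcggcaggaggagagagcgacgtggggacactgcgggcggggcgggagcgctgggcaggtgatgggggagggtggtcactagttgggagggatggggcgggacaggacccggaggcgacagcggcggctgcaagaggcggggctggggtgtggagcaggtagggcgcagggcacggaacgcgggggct
Ncmap promoter 2: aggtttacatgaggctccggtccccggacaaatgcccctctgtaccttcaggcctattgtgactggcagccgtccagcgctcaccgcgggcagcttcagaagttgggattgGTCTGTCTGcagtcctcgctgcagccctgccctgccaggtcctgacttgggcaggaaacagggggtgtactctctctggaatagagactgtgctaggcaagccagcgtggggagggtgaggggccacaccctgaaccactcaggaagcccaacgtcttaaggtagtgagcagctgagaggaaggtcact
Nup93 promoter 1: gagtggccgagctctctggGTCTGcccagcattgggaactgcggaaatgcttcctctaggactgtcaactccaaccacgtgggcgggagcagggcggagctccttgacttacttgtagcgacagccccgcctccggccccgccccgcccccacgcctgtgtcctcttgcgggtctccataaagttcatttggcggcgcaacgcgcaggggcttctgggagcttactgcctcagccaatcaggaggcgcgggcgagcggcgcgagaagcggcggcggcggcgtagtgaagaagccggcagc
Diaph2 promoter 1: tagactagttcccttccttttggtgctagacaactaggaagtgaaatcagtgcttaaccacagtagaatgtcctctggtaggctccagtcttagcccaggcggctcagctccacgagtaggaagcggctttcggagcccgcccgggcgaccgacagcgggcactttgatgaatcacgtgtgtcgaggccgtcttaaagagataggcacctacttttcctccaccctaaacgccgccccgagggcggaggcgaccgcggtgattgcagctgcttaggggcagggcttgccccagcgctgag
Ubash3b promoter 1: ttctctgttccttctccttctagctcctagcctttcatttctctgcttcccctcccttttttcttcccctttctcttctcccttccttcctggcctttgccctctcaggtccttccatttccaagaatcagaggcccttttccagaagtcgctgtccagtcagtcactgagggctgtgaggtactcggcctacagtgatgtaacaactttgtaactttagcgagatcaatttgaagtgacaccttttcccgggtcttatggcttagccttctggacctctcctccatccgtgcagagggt

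CAGAC began 157 bases before the start in Ncmap promoter 1, and its reverse complement began 139 and 135 bases before the start, side by side and sharing 1 base, in Ncmap promoter 2. In Nup93 promoter 1 the reverse complement began 231 bases before the start. So 3 of the 11 windows, of 2 of the 8 genes, held the motif, whereas 49.5% of 32544 mouse promoter windows of the same length did. The palindrome GTCTAGAC was in none of the 11 and in 0.215% of all windows. GGCGC, another Smad motif (or GCGCC on the other strand), was in 6 windows of 6 genes (Myo6, Fchsd2, Ncmap, Eif4a2, Nup93 and Farsa) and in 37.1% of all windows. GTCTAGAC contains neither CAGAC nor GTCTG, and GGCGC contains none of the others. GC content ran from 40.3% in Nup93 promoter 2 to 82.0% in Fchsd2 promoter 1, with a median of 53.0% over all windows. A match is a string of letters and not a site, and 3' tags do not tell which start was used.

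The cell-type libraries, which hold no guide, asked whether the same genes differ between cells cultured with and without TGF-beta. Compared with Th0 cells, 5 of the 9 genes rose in Treg cells and 1 fell (limma adjusted p below 0.05 over 14165 genes), and each of these 6 had the opposite direction to its difference with the Smad3 guide. Of all genes tested, 2.99% were higher and 2.45% lower in Treg than in Th0 cells. The 5 that rose were Fchsd2, Diaph2, Ubash3b, Endod1 and Ncmap, and the one that fell was Myo6. Eif4a2, which was also lower in all 4 libraries with the Smad3 guide, did not pass the test between Treg and Th0 cells. All 9 genes passed the filter on low values in both experiments. The median log2 change of the 9 was 1.89, against -0.01 over all genes tested.

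Fchsd2 had 122, 132 and 110 CPM in Treg, 37.1, 25.5 and 34.3 in Th0 and 107, 123 and 141 in naive libraries. Treg and naive values overlapped, and Th0 lay far below both. Its log2 change was 1.89 (SE 0.16, limma adjusted p = 2.2e-07) for Treg against Th0, a fold of 3.70, and -0.02 (adjusted p = 0.93) for Treg against naive, where the 95% interval ran from -0.36 to 0.31. The fall was in the culture without TGF-beta, with Th0 at -1.91 against naive (adjusted p = 1.1e-08). Of all genes, 23.3% were higher and 16.5% lower in Treg than in naive cells, and 24.3% were higher and 17.6% lower in Th0 than in naive cells, so calls against naive cells were common. Of the 9 genes, 6 rose and 1 fell in Treg against naive, and 3 rose and 5 fell in Th0 against naive.

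Diaph2 had 150, 168 and 209 CPM in Treg, 37.1, 45.5 and 46.5 in Th0 and 69.0, 80.5 and 88.8 in naive libraries. The 3 groups did not overlap, with Treg highest and Th0 lowest. Diaph2 rose 3.98-fold against Th0 (log2 1.99, SE 0.16, limma adjusted p = 7.5e-08) and also rose against naive cells (log2 1.13, adjusted p = 8.5e-06). Ubash3b had 73.2, 112 and 105 CPM in Treg, 33.9, 22.2 and 18.4 in Th0 and 60.2, 59.5 and 72.5 in naive libraries. Its lowest Treg library was level with its highest naive library, and all Th0 libraries were lower. Ubash3b rose 3.84-fold against Th0 (log2 1.94, SE 0.21, limma adjusted p = 4.9e-06). Against naive cells its log2 change of 0.57 passed the threshold (limma adjusted p = 0.040), and that call was lost in 8 of 12 alternative settings, with adjusted p values of up to 0.18.

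Endod1 had 54.9, 81.2 and 62.7 CPM in Treg, 23.3, 5.55 and 9.80 in Th0 and 20.1, 8.67 and 10.5 in naive libraries. Treg stood apart, and Th0 and naive values overlapped. It rose against both, with log2 changes of 2.47 (SE 0.39, limma adjusted p = 0.00037) against Th0 and 2.32 (adjusted p = 8.1e-05) against naive, whereas Th0 against naive gave -0.15 (adjusted p = 0.79, 95% interval -0.97 to 0.67). Ncmap had 19.4, 28.4 and 37.2 CPM in Treg, 4.24, 2.22 and 2.45 in Th0 and 10.0, 6.19 and 11.7 in naive libraries. The groups did not overlap, and its Th0 libraries held 8 reads in all, against 100 reads in Treg, the thinnest counts among the 9. The ratio of Ncmap CPM in Treg over Th0, from summed reads, was 9.50, with an exact 95% counting interval of 4.64 to 22.6. The limma fit gave a log2 change of 2.87 (SE 0.40, adjusted p = 8.2e-05).

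Myo6 had 35.5, 35.5 and 31.3 CPM in Treg, 142, 109 and 122 in Th0 and 38.9, 40.9 and 46.8 in naive libraries. Th0 stood far above the other groups, which did not overlap but lay close. Myo6 fell to 0.281 of the Th0 level in Treg cells (log2 -1.83, SE 0.16, limma adjusted p = 2.9e-07) and was higher in Th0 than in naive cells (log2 1.53, adjusted p = 2.3e-07). Treg against naive gave -0.30 (adjusted p = 0.16), which passed the threshold under quantile scaling alone (log2 -0.49, adjusted p = 0.018). The calls of all 6 genes in Treg against Th0 held in each of the 12 alternative settings run, leaving out each library included, with Endod1 having the highest adjusted p of 0.034.

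**Figure D3:**
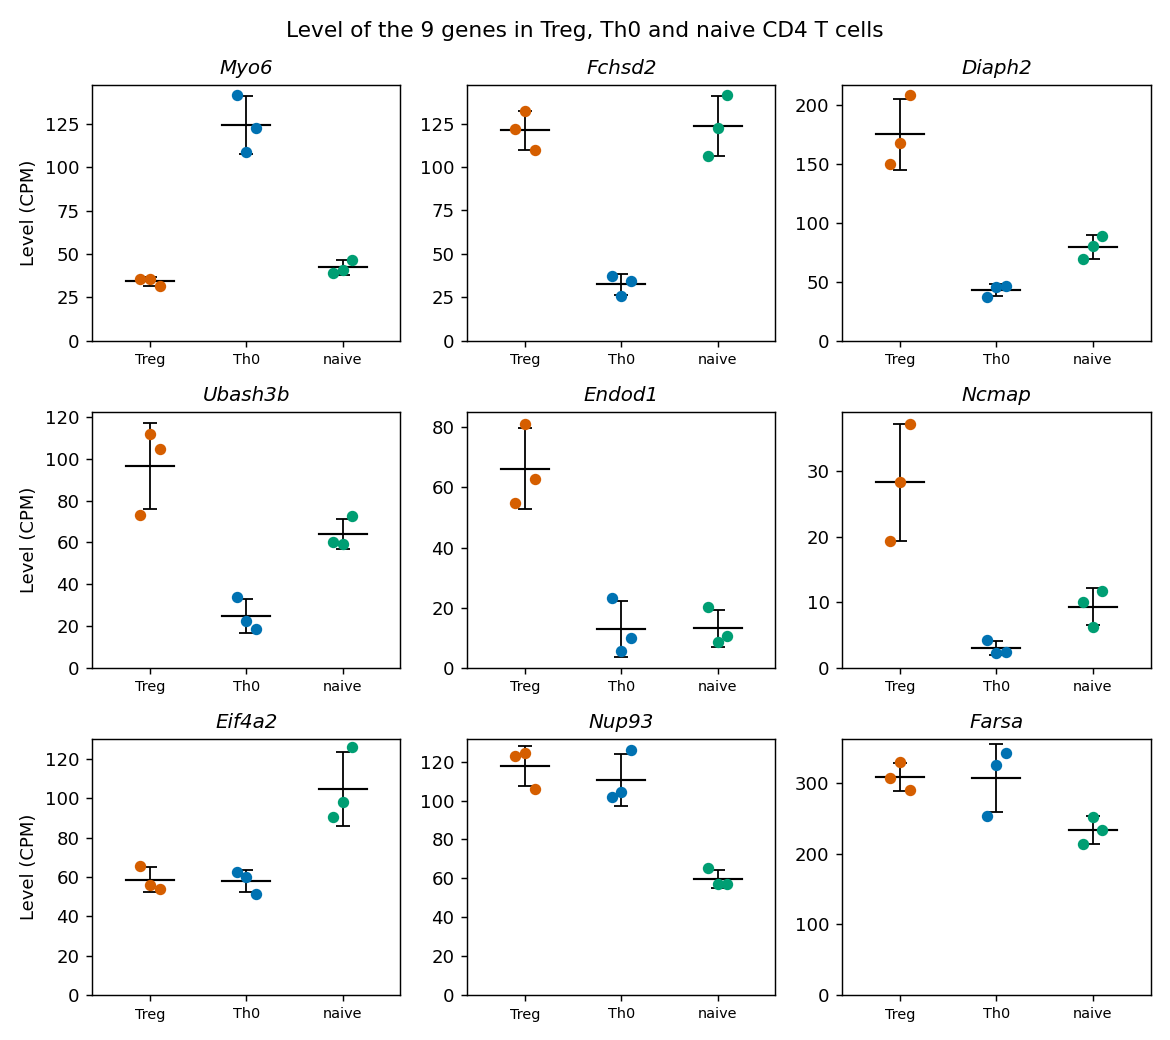
Level of each gene in CPM (vertical axis, from 0) in Treg, Th0 and naive cells (horizontal axis). Each point is 1 library, and bars give the mean and SD of 3 libraries. Th0 is lowest for Fchsd2, Diaph2, Ubash3b and Ncmap and highest for Myo6, and Treg and Th0 lie together for Eif4a2, Nup93 and Farsa.

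Eif4a2, Nup93 and Farsa did not pass the test between Treg and Th0 cells. Eif4a2 had 65.7, 56.1 and 53.9 CPM in Treg, 62.5, 59.9 and 51.4 in Th0 and 90.3, 97.9 and 126 in naive libraries. Both cultured groups overlapped and lay below the naive cells, with log2 changes of -0.82 for Treg (limma adjusted p = 0.00035) and -0.83 for Th0 (adjusted p = 0.00028) against naive. Nup93 had 123, 124 and 106 CPM in Treg, 102, 104 and 126 in Th0 and 65.2, 57.0 and 57.3 in naive libraries, so that the cultured groups overlapped and both lay above naive. Its log2 change was 0.96 for Treg (limma adjusted p = 1.1e-05) and 0.87 for Th0 (adjusted p = 3.1e-05) against naive.

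Farsa had 308, 329 and 290 CPM in Treg, 253, 326 and 343 in Th0 and 214, 253 and 234 in naive libraries. Its Th0 values spread widely and the lowest touched the highest naive value. The log2 change of 0.40 for Treg against naive (limma adjusted p = 0.0075) and of 0.39 for Th0 against naive (adjusted p = 0.0097) both lost the call without a variance trend, with adjusted p values of 0.097 and 0.11. In all, the call was lost in 1 of 12 alternative settings for Treg against naive and in 2 of 12 for Th0 against naive. Between Treg and Th0 the log2 change and its 95% interval were 0.01 (-0.32 to 0.35) for Eif4a2, 0.09 (-0.19 to 0.37) for Nup93 and 0.02 (-0.22 to 0.25) for Farsa.

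Levels in the 2 experiments can be set side by side but were not tested against each other. The control cultures of the guide experiment had mean levels of 69.5 CPM for Myo6, 132 for Fchsd2, 237 for Diaph2, 134 for Ubash3b, 112 for Endod1 and 59.0 for Ncmap. The Treg cells of the cell-type experiment, with the same cytokines, had means of 34.1, 121, 175, 96.7, 66.3 and 28.3 CPM for these genes in that order, and the Th0 cells had 124, 32.3, 43.0, 24.8, 12.9 and 2.97 CPM. With the Smad3 guide alone the levels were 61.5 for Fchsd2, 122.5 for Diaph2, 57.5 for Ubash3b, 55.5 for Endod1 and 35.5 for Ncmap, each above its Th0 level. Myo6 had 175.5 CPM there, above its Th0 level of 124. Each control level lay above the Treg level of the same gene, so levels set side by side carry this offset. For Myo6 these were 69.5 CPM in control and 34.1 in Treg. Within each experiment Myo6 differed by log2 1.32 for sgSmad3 against control and by -1.83 for Treg against Th0. On this scale its difference with the guide was the smaller.

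The Smad3 guide contrast and the TGF-beta contrast share no library, so their calls could be compared over all 10638 genes tested in both. Leaving out the 9 genes, 60 others were lower with the Smad3 guide (mean of sgSmad3 against control and sgSmad2/3 against sgSmad2), and 42 of them were higher in Treg than in Th0 cells, which is 70.0% of the first list and 10.6% of the 397 genes of the second. Of 30 others higher with the guide, 8 were lower in Treg, which is 26.7% of the first list and 2.7% of the 296 of the second, namely Anxa2, Cd28, Gzmb, Id2, Itga7, Itgb3, Klhdc2 and Ms4a6b. In the same direction in both contrasts there was 1 gene each way, S100a6 and Rpl36. These guide calls depend on the filter on low values and on single libraries, with 100 genes called over the experiment, 0 at a filter of 1 CPM, 9 without sgSmad2/3 replicate 2 and 260 without sgSmad2 replicate 2. A criterion without a fit gave the same direction: of 348 other genes lower in all 4 libraries with the Smad3 guide, 22.4% were higher and 1.44% lower in Treg cells, against 3.74% and 2.78% of all genes tested in both. Of 417 other genes higher in all 4, 0.24% were higher and 5.04% lower in Treg cells.

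**Figure D4:**
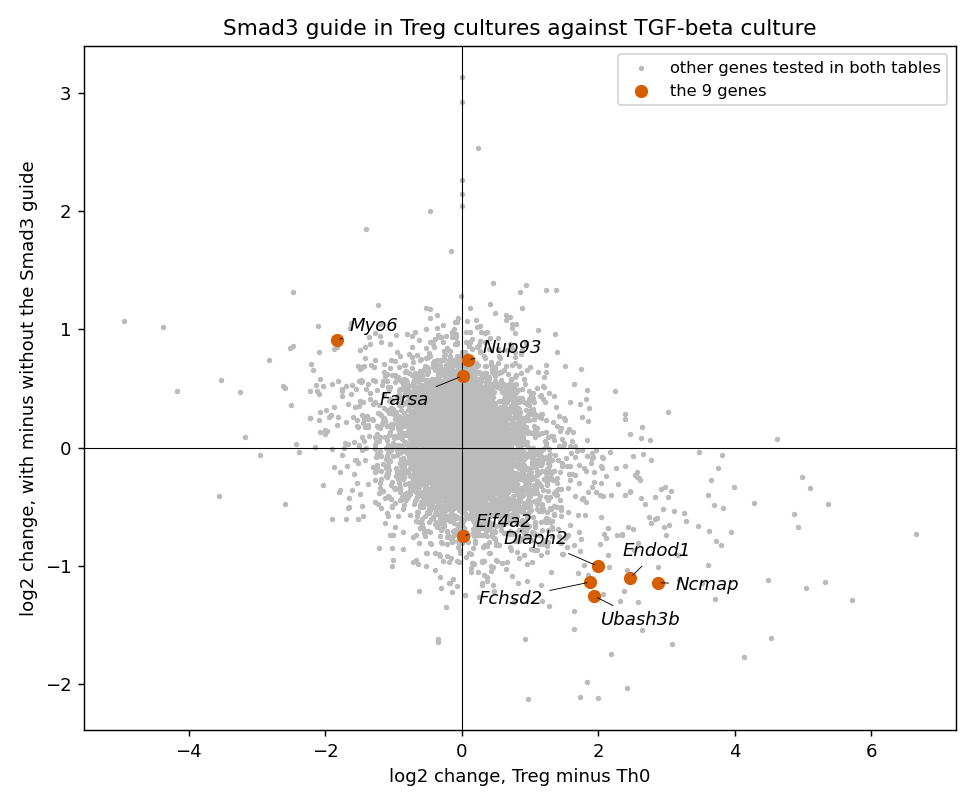
Log2 change of Treg minus Th0 cells (horizontal axis) against log2 change of cultures with minus without the Smad3 guide (vertical axis, mean over both Smad2 guide states) for 10638 genes tested in both experiments. Grey points are other genes and orange points the 9 genes: Fchsd2, Diaph2, Ubash3b, Endod1 and Ncmap sit at the lower right, Myo6 at the upper left, and Eif4a2, Nup93 and Farsa near 0 on the horizontal axis.

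Genes of the TGF-beta pathway itself gave a background for the 9. Of 30 ligands, receptors, Smads, feedback regulators and targets, 24 were tested in both experiments. In Treg against Th0 cells 9 rose (Foxp3, Itgae, Ldlrad4, Pmepa1, Ski, Skil, Smad7, Smurf2 and Spsb1) and 2 fell (Id2 and Smad3), where 2.99% of all genes rose and 2.45% fell. With sgSmad3 against control none of the 24 passed limma at an adjusted p below 0.05 and 4 had an unadjusted p below 0.05, as did 11.3% of all genes. By the adjusted p, 0.0559% of all genes were called higher and 0.0373% lower. With sgSmad2 none passed and 4 had an unadjusted p below 0.05, as did 3.23% of all genes, and 0.00931% of all genes were called higher and 0% lower. With sgSmad2/3 Id1 and Id2, inhibitors of E proteins, rose and Pmepa1 and Skil, feedback inhibitors of TGF-beta signalling, fell, where 0.233% of all genes were called higher and 0.289% lower. These calls are lost with the filter at 1 CPM or without a variance trend, which leave 0 of the 56 calls for sgSmad2/3, and the contrast gives 4 to 13 calls without 1 library. Pmepa1 had 637 and 716 CPM in sgSmad2, 529 and 504 in sgSmad3, 343 and 381 in sgSmad2/3 and 647 and 662 in control libraries, with a log2 change of -0.85 for sgSmad2/3 (limma adjusted p = 0.013).

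Averaged over both states of the Smad2 guide, Id1 (log2 1.38, limma adjusted p = 0.016) and Id2 (0.82, adjusted p = 0.0016) rose and Itgae (-1.12, adjusted p = 0.011) and Pmepa1 (-0.62, adjusted p = 0.010) fell with the Smad3 guide, where 0.307% of all genes were called higher and 0.624% lower. These calls are likewise lost at a filter of 1 CPM. Id2 had 196 and 219 CPM in sgSmad2, 215 and 220 in sgSmad3, 619 and 548 in sgSmad2/3 and 185 and 204 in control libraries, so that its average came from the cultures with both guides. Smad7, a feedback inhibitor that rose 2.57 on the log2 scale in Treg against Th0 cells, had 132 and 175 CPM in sgSmad2, 132 and 170 in sgSmad3, 124 and 134 in sgSmad2/3 and 152 and 190 in control libraries. Foxp3, with 3.99 in Treg against Th0, changed by -0.08 with sgSmad3 (adjusted p = 0.94). Fchsd2, Diaph2, Ubash3b and Endod1 thus differed more with the Smad3 guide alone than Smad7, Skil or Pmepa1 did (-0.18, -0.43 and -0.34), and they were chosen for it. Not every pathway gene differed so little. Id1 had 11 and 11 CPM in sgSmad2, 12 and 12 in sgSmad3 and 3 and 7 in control libraries. It thus lay above the controls by a similar amount with the Smad2 guide alone, at low counts. Itgae had 37 and 58 CPM in sgSmad2, 18 and 26 in sgSmad3 and 39 and 36 in control libraries.

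**Figure D5:**
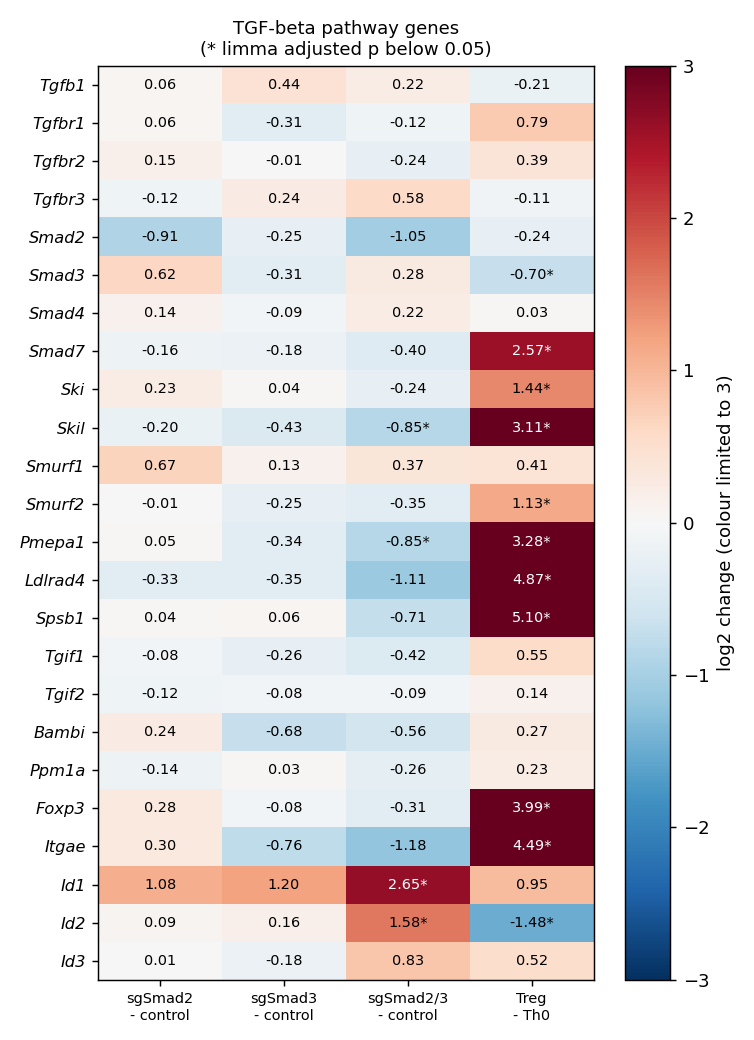
Log2 change of 24 TGF-beta pathway genes (rows) for sgSmad2, sgSmad3 and sgSmad2/3 against control and for Treg against Th0 (columns), with colour limited at 3 and an asterisk for a limma adjusted p below 0.05. The sgSmad3 column holds no asterisk, the sgSmad2/3 column marks Skil, Pmepa1, Id1 and Id2, and the Treg column marks 11 genes.

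Relatives and partners of the 9 genes were counted in the same way. In all 4 guide contrasts, no gene of the 8 lists of partners passed the threshold (myosin VI cargo adaptors, other unconventional myosins, other formins, F-BAR proteins, proximal T cell receptor signalling, translation initiation factors, tRNA synthetases and inner ring nucleoporins), and between 0 and 6 genes of a list had an unadjusted p below 0.05 in any of these contrasts. Over all genes that share was 3.23% for sgSmad2, 11.3% for sgSmad3, 10.6% for sgSmad2/3 and 14.9% for the Smad3 guide average. The highest count, 6 of 11, was that of the translation initiation factors in sgSmad2/3. Diaph1, a formin related to Diaph2, changed by -0.06 with sgSmad3 (limma adjusted p = 0.92), and Ubash3a, the paralog of Ubash3b, by -0.21 (adjusted p = 0.70). Diaph3, another related formin, had 84 and 63 CPM in sgSmad3 and 79 and 77 in control libraries. Fchsd1 stayed at or below 10 CPM in all guide libraries. Eif4a1, the close paralog of Eif4a2, had 242 and 246 CPM in sgSmad2, 390 and 226 in sgSmad3, 249 and 250 in sgSmad2/3 and 221 and 204 in control libraries. One sgSmad3 library of Eif4a1 stood above all others and the second did not, whereas both sgSmad3 libraries of Eif4a2 were low.

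Farsb, which encodes the beta subunit that joins the Farsa product in 1 enzyme, had 73 and 99 CPM in sgSmad2, 129 and 103 in sgSmad3, 115 and 105 in sgSmad2/3 and 80 and 93 in control libraries, with a log2 change of 0.41 for sgSmad3 (limma adjusted p = 0.45). Its 4 libraries with the Smad3 guide were above all 4 without it. In Treg against Th0 cells Farsb fell (log2 -0.47, adjusted p = 0.030) with 7 other tRNA synthetases among the 18 tested and none rose, whereas Farsa did not pass the test. Of all genes, 2.45% fell and 2.99% rose in that comparison. In Th0 against naive cells 17 of the 18 synthetases rose, where 24.3% of all genes did. Nup205, an inner ring partner of Nup93, had 44 and 54 CPM in sgSmad2, 56 and 70 in sgSmad3, 44 and 60 in sgSmad2/3 and 43 and 38 in control libraries (log2 0.62 for sgSmad3, adjusted p = 0.35). Of 7 inner ring nucleoporins tested, 3 rose in Treg and 3 in Th0 against naive cells, where 23.3% and 24.3% of all genes rose.

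For each gene the 3 others with the highest Pearson correlation over the 8 guide libraries were picked from 8415 genes, a search that gives high coefficients for any gene and is a description only. The genes most like Myo6 included Itga7 (0.978) and Itgb3 (0.965). Itgb3, an integrin subunit, had 34 and 56 CPM in sgSmad2, 44 and 42 in sgSmad3, 88 and 106 in sgSmad2/3 and 14 and 15 in control libraries. Like Myo6 it was above the control with either guide, highest with both, and lower in Treg than in Th0 cells (log2 -2.47, limma adjusted p = 1.7e-06). Fchsd2 was followed by Cd101 (0.987), Cd40 (0.984) and Foxn3 (0.982), of which Cd40 had 53 and 55 CPM in sgSmad2, 18 and 15 in sgSmad3, 11 and 17 in sgSmad2/3 and 42 and 43 in control libraries.

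Endod1 was followed by Nus1 (0.985), Rab37 (0.978) and Acsl6 (0.973). Acsl6, an acyl-CoA synthetase that the guide experiment was made to examine, had 82 and 78 CPM in sgSmad2, 27 and 27 in sgSmad3, 31 and 43 in sgSmad2/3 and 75 and 68 in control libraries. Both genes were low in all 4 libraries with the Smad3 guide and near or above the control with the Smad2 guide. Nup93 and Farsa had Irak1 in common (0.982 and 0.973), and Nup62, another nucleoporin, was next for Nup93 after Irak1 and Cdk4 (0.974) with a log2 change of 0.80 for sgSmad3. The genes most like Diaph2 were Ralgds, Prnp and Pik3cg, those most like Ubash3b were Arid5b, Stim2 and Foxn3, those most like Ncmap were Rnf14, Sec24a and Rab37, and those most like Eif4a2 were Gstt2, Paip2 and Tle1.

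By position on GRCm38.p6, Myo6 (chr9:80164976-80311729), Ubash3b (chr9:41010760-41161692) and Endod1 (chr9:14353990-14381242) lie on chromosome 9, which also holds Smad3, at distances of 16.5, 22.6 and 49.3 Mb from it. Chromosome 9 holds 5.69% of 10031 tested genes with a position. Nup93 (chr8:94214564-94328100) and Farsa (chr8:84856969-84869257) lie on chromosome 8. Fchsd2 lies at chr7:101108499-101284405, Diaph2 at chrX:129749668-130465834, Ncmap at chr4:135369576-135398240 and Eif4a2 at chr16:23107468-23114132. Of the 18 nearest tested neighbours, 1 on each side of each gene, none passed limma in sgSmad3 against control or in the average of the Smad3 guide, with Gm9531 after Myo6 having the lowest adjusted p of 0.12. At an unadjusted p below 0.05 there were 2 and 3 of the 18, against 11.3% and 14.9% of all genes. Some of these neighbours were distant. Gm9531 lay 1365810 bases from Myo6, and Chm and Cstf2 lay 16564129 and 3593342 bases from Diaph2, so for Diaph2 they say nothing of its close surroundings. Eif4a2 overlaps Rfc4 by 185 bases, and the strand setting of the counting is not given in the sources used here, so reads there cannot be told apart. Rfc4 had 20 and 16 CPM in sgSmad2, 26 and 26 in sgSmad3, 20 and 27 in sgSmad2/3 and 17 and 20 in control libraries, and so was not lower where Eif4a2 was.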

How the data were processed

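The series has 29 samples. Expression came from 3' tags (QuantSeq FWD, per the labels' protocols), and 17 RNA libraries are described. An Acsbg1 experiment (4 libraries) and ATAC data (8 libraries) were not used here. STAR 2.7.9a, Subread 2.0.1 and the build mm10 are listed in the submitters' processing notes with no role. In the deposited cell-type table the values were CPM made by the authors: each column adds up to 1000000, and in 100% of entries the value is a whole number of reads (tolerance 0.01), so that reads could be recovered. In the deposited guide table the values were a score: the authors had rounded CPM to integers. Each value column had its sample.

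For each table, log2(CPM + 1) values of all its groups entered a single model in limma 3.58.1 (R 4.3.3) with a variance trend. Benjamini-Hochberg adjustment covered every gene tested, and calls used 0.05. Folds on this scale understate changes of low genes. The filter required 1 CPM in 3 cell-type libraries (14165 genes) or 5 CPM in 2 guide libraries (10737 genes). The guide filter was raised from the planned 1 CPM after seeing the data, because rounded values near 0 have no spread and the fit failed on simulated data. The Smad3 guide contrast is the mean of sgSmad3 minus control and sgSmad2/3 minus sgSmad2, and all guide comparisons share libraries. The members and gene lists were chosen with earlier results of these data known. The genes named were the 9 members, their partner and pathway lists, the guide targets, the 3 genes most like each member, the nearest neighbours and genes that 2 contrasts share. One gene that this rule names is not reported here. The alternatives were pseudocount, filter, scaling, variance trend, replicate block, leaving out each library and, for the cell-type table, edgeR 4.0.16 on recovered reads. Replicate numbers did not enter the main fit, although control and sgSmad2 libraries of 1 number deviated together. Replicates of a group differed by more than counting noise. Reads carry no molecular identifiers, so counting intervals cover counting error only.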

Additional observations from a re-analysis of the deposited data

How the results depend on the processing

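For the 9 genes, 304 of 324 alternative values in the cell-type comparisons kept their direction and their side of the threshold, and 375 of 396 in the guide comparisons kept their direction and stayed within 1 SD. None of those that changed sign was a call: with 1 library left out, the log2 change ran from -0.12 to 0.079 for Fchsd2 in Treg against naive, from -0.66 to 0.29 for Endod1 in Th0 against naive, and, in Treg against Th0, from -0.070 to 0.070 for Eif4a2 and from -0.12 to 0.10 for Farsa. For sgSmad2 against control it ran from -0.085 to 0.11 for Fchsd2, from -0.24 to 0.15 for Ubash3b and from -0.046 to 0.34 for Nup93.

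Counts of called genes over the whole tables moved more. Treg against Th0 called 770 genes, 453 without a variance trend and 503 to 642 without 1 library, the lowest without Treg replicate 2. Leaving out 1 library gave 4791 to 5136 for Treg against naive (5648 with all) and 5246 to 5425 for Th0 against naive (5935 with all). The guide contrasts called 1 gene for sgSmad2, 10 for sgSmad3, 56 for sgSmad2/3 and 100 for the Smad3 guide. Without a filter, or with one at 1 CPM (added after seeing the data), all 4 gave 0, and the cause beyond the rounded low values was not tested. Without a variance trend they gave 0, 2, 0 and 2 in that order, and quantile scaling gave 2 for sgSmad2. With the replicate block they gave 2, 27, 110 and 247. Control and sgSmad2 libraries of 1 number deviated together (r = 0.389 over genes), and the other pairs of guide groups did not (0.0026 to 0.074). The 4 libraries without the Smad3 guide were thus not fully independent, which the main fit leaves out of account. Leaving out 1 library gave 0 to 0, 0 to 6, 4 to 13 and 9 to 260. Every library of sgSmad2/3 and control left out, and sgSmad3 replicate 1 and sgSmad2 replicate 1, lowered the last count by more than 1.5 times, whereas leaving out sgSmad2 replicate 2 raised it. With 2 libraries per guide group, a difference that misses the threshold is not shown to be absent.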
